A study of Rattus norvegicus with 22 samples.

Results

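In prefrontal cortex taken from male Sprague-Dawley rats, 4054 stretches of open chromatin were called in both libraries from cocaine-treated animals and in neither library from animals without cocaine (WIN and control, called cocaine-free here). These regions were chosen from 99896 active regions, the authors' merged list of open sites. A region was a member if it held at least 1 interval called in the WIN+cocaine library and 1 called in the cocaine library, and none called in the WIN or the control library. Members were 4.06% of all active regions, a share that depends on the rule and on the calls kept. It is a description, and serves below as the baseline for parts of the genome. Because the calls chose the members, their scores are given as a description with no test.

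Open chromatin was mapped by ATAC sequencing, in which a transposase inserts adapters where DNA is free of nucleosomes, on 100000 nuclei from flash frozen tissue. There were 4 groups with 1 library each: WIN+cocaine, cocaine, WIN and control, where WIN names the cannabinoid of a series on adolescent exposure and the later response to cocaine. The labels used here give no dose, age or time for any group, and do not say whether tissue of several animals was pooled. With 1 library per group there is no replicate check and no test between treatments, and every interval below covers counting error over regions, not the spread between animals.

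Open regions in brain tissue are mostly promoters, which lie at the starts of genes and are open in many cell types and states, and distal enhancers, many of which open in 1 cell type or after neurons have been active. Cocaine blocks the reuptake of dopamine, whose fibres reach the prefrontal cortex, and strong activity induces transcription factors of the Fos and Jun families that bind enhancers. Cannabinoid agonists act on a receptor found mainly on nerve terminals, where it lowers transmitter release. In bulk tissue, a site that is open in fewer cells and a site that is less open in each cell cannot be told apart. No source used here names the genome build of the coordinates, so genes and sequences at the regions were not looked up and the cortical identity of the tissue was not checked against marker genes.

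Of the 6 sets of regions shared by exactly 2 libraries, the pair of cocaine-treated libraries held the largest. WIN+cocaine and WIN alone shared 2041 regions, WIN+cocaine and control 2038, cocaine and WIN 2236, cocaine and control 1850, and WIN and control 1855. Seen from the WIN+cocaine library, cocaine was the partner in 49.8% of the 8133 regions that it shared with 1 other library, WIN in 25.1% and control in 25.1%. From the cocaine library, WIN+cocaine was the partner in 49.8% of 8140 such regions, WIN in 27.5% and control in 22.7%. The partners of the cocaine-free libraries were more evenly divided in this count of all intervals: those of WIN were 33.3% WIN+cocaine, 36.5% cocaine and 30.3% control, and those of control 35.5% WIN+cocaine, 32.3% WIN and 32.2% cocaine.

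The sizes of these sets moved with the number of intervals called, which was 76884 in WIN+cocaine, 76590 in cocaine, 70942 in WIN and 69639 in control. With the 69639 highest-scoring intervals of each library, 2769 regions belonged to the cocaine-treated pair, or 2.77% of all active regions, and 2905 to WIN and control. The 4 pairs that cross cocaine status held from 1822 to 2109 regions under this setting, fewer than either pair of like cocaine status. When the 2 cocaine-treated libraries alone were reduced to 69639 intervals, the cocaine-treated pair held 2704 regions, or 2.71%, and WIN and control held 3087. At equal numbers every library had the one of like cocaine status as its most frequent single partner: cocaine was 41.6% of the partners of WIN+cocaine, WIN+cocaine 41.2% of those of cocaine, control 42.5% of those of WIN, and WIN 42.6% of those of control. The lean of the cocaine-treated libraries to each other was thus matched by that of WIN and control, and the lead of the cocaine-treated pair in total count was not kept. Among stronger regions the order depended on the measure. With the 50000 highest-scoring intervals of each library, the cocaine-treated pair held 1958 regions and WIN and control 2034, so the lead was not kept. With 69639 intervals each, regions were also classed by the lower of their 2 score percentiles, taken over all deposited intervals of each library. A class so defined does not hold equal numbers of intervals of each library. Under 25 the cocaine-treated pair held 1412 regions and WIN and control 2235. From 25 to 50 these pairs held 1035 and 545, from 50 to 75 they held 272 and 111, and above that 50 and 14.

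**Figure D1:**
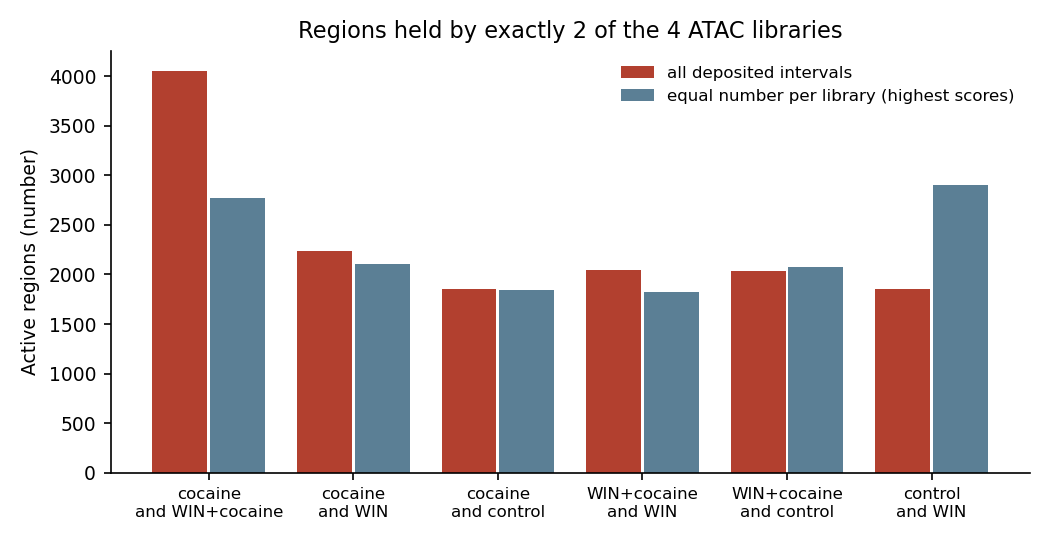
Number of active regions held by exactly 2 of the 4 libraries, for each pair, with all deposited intervals (red) and with the 69639 highest-scoring intervals of each library (blue). The cocaine-treated pair has the tallest red bar, at 4054, and at equal numbers its 2769 regions stand beside 2905 for WIN and control.

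Member regions were weak sites in both libraries. The authors' whole-number summit score ran from 15 to 147 among members in WIN+cocaine, with a median of 27 and quartiles of 23 and 33, and from 14 to 167 in cocaine, with the same median and quartiles. Ranked within its own library, the median member stood at percentile 23.3 in WIN+cocaine and 23.1 in cocaine. Regions of all 4 libraries stood at a median percentile of 66.0 in each of these libraries, with a median score of 51. Members were nevertheless stronger than regions of 1 library alone, whose median score was 24 in both WIN+cocaine and cocaine. They stood little above regions that either of these libraries shared with WIN only or with control only. The median score of those regions was 26 in the cocaine-treated library in each case. Regions of WIN and control alone had a median score of 25 in both libraries, which is percentile 20.3 in each.

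The share of a library's intervals that were members was lower in each stronger decile of scores. In the weakest decile of WIN+cocaine intervals, with scores up to 22, 910 of 8091 were members, or 11.2%, and in the weakest decile of cocaine intervals 1011 of 7808 were, or 12.9%. In decile 5, the shares were 5.82% in WIN+cocaine and 5.56% in cocaine. In the strongest decile, with scores of 103 or more, 5 of 7621 WIN+cocaine intervals and 8 of 7622 cocaine intervals were members, and 99.8% of the intervals lay in regions of all 4 libraries. The set held by WIN and control alone took 6.83% and 7.31% in the weakest decile and 2.30% and 2.12% in decile 5 of the WIN and control intervals. At equal numbers of intervals the order in the weakest decile turned round, with members at 8.27% of WIN+cocaine and 8.40% of cocaine, and the other set at 12.3% of WIN and 11.6% of control. In decile 5 it did not, at 4.60% and 4.43% against 3.25% and 3.12%.

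**Figure D2:**
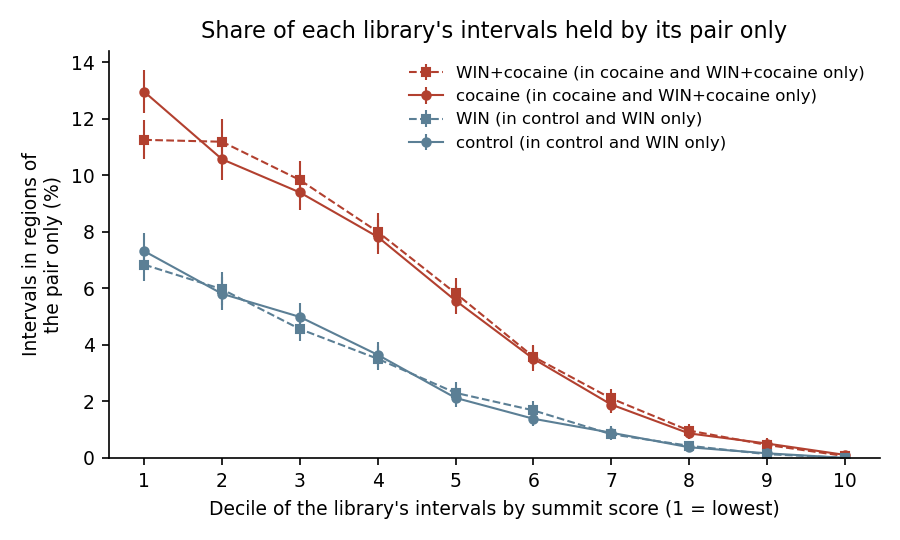
Share of each library's intervals that lie in regions of its pair only, by decile of summit score within the library, with exact 95% binomial intervals as bars. The 2 cocaine-treated libraries follow 1 curve from above 11% to about 0.1%, and WIN and control follow a lower one; at equal numbers the order in decile 1 is the opposite.

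Within members the 2 libraries gave like scores. The scores were equal in 268 regions and within 5 points in 2396, or 59.1%. Percentile ranks lay within 10 points of each other in 2018 regions, or 49.8%, and the median difference, as WIN+cocaine minus cocaine, was 0.27 points with quartiles of -8.42 and 10.8. The rank was higher in WIN+cocaine in 2218 members and higher in cocaine in 1836. Across the 4054 members Spearman's rho between the scores was 0.579, beside 0.872 over the regions of all 4 libraries, whose scores span a wider range; these points share 2 libraries and are not independent.

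The members that leaned most to 1 library were middling there and close to the weakest calls in the other. A region on chromosome 1 at 232727133 to 232727462 scored 52 in WIN+cocaine and 22 in cocaine, a difference of 58.2 percentile points. One on chromosome 4 at 120337200 to 120337587 scored 49 in WIN+cocaine and 23 in cocaine, a difference of 52.3 points. In the other direction, a region on chromosome 18 at 72792701 to 72793045 scored 17 in WIN+cocaine and 47 in cocaine, a difference of -60.9 points. The next, on chromosome 7 at 103680684 to 103681069, scored 19 in WIN+cocaine and 44 in cocaine, a difference of -55.0 points. The 5 most unequal members in each direction all had a score between 17 and 25 in their weaker library.

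**Figure D3:**
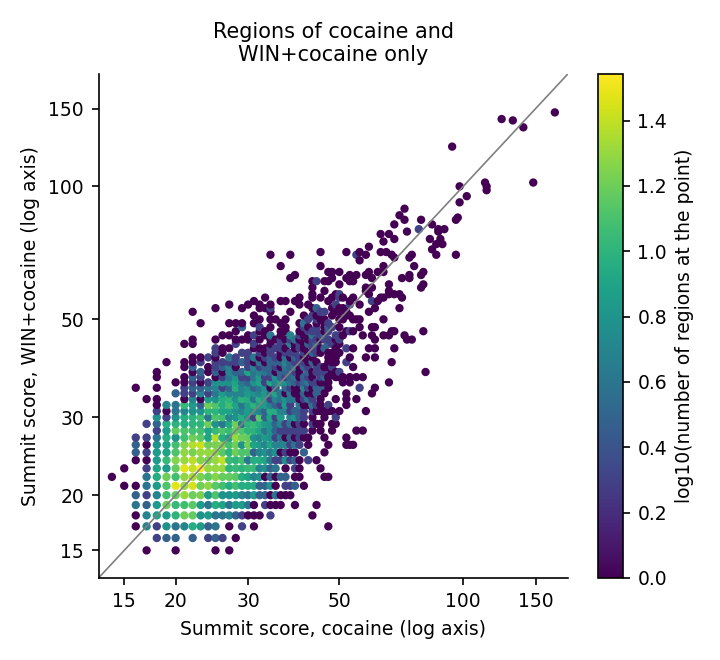
Summit score in WIN+cocaine (vertical) against cocaine (horizontal) for the 4054 members, both on log axes, coloured by the number of regions at each pair of scores, with the line of equality in grey. Most points lie between 20 and 40 on both axes, and a thin tail of members scores about 100 or more in both libraries.

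Only a small part of the members was strong in both libraries. In 321 members, or 7.92%, the score was at or above the library's median percentile in WIN+cocaine and in cocaine alike. In 50 it was at percentile 75 or higher in both, or 1.23% (exact 95% interval 0.917% to 1.62%). The other 5 pairs had between 2 and 14 such regions, the 14 being among the 1855 regions of WIN and control alone, or 0.755% (0.413% to 1.26%). At percentile 90 or higher in both there were 4 members, or 0.0987% (0.0269% to 0.252%). There were 0 such regions in each of the other 5 pairs, which allows a share of up to 0.165% to 0.199% by the exact upper limits. Those limits lie above the share of members, so the 4 do not set the members apart from the other pairs. In the strongest decile of intervals, 3 WIN and 2 control intervals lay in regions of their own library alone, beside 0 in WIN+cocaine and 0 in cocaine. In decile 9 every library had such intervals, with 14 in WIN, 9 in control, 7 in WIN+cocaine and 5 in cocaine.

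The 4 members at percentile 90 or higher in both libraries had scores at which nearly all other calls were found in every library. The strongest lay on chromosome X at 90664741 to 90665102, 362 bp wide, with a score of 147 in WIN+cocaine and 167 in cocaine, at percentiles 95.5 and 96.4. Its summits were 16 bp apart. The nearest WIN interval was 11376 bp away with a score of 21, and the nearest control interval 137522 bp away with a score of 23. A site near the top of both cocaine-treated libraries thus had no call, and no strong call nearest to it, in either of the others.

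The second lay on chromosome 5 at 35024859 to 35025156 and scored 136 in WIN+cocaine and 140 in cocaine, with both summits at the same position. Its nearest WIN interval was 132894 bp away with a score of 19, and its nearest control interval 132729 bp away with a score of 20. The third, on chromosome 1 at 230436818 to 230437171, scored 141 in WIN+cocaine and 132 in cocaine. It stood the most alone of the 4, with the nearest WIN interval 606956 bp and the nearest control interval 606738 bp away. The fourth, on chromosome 10 at 66738545 to 66738903, scored 142 in WIN+cocaine and 124 in cocaine, and its neighbours in WIN and control were 48689 and 48669 bp away.

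The next 6 by the same ranking scored from 95 to 102 in WIN+cocaine and from 98 to 148 in cocaine, and they were of 2 kinds. Of these, 3 sat beside an interval of the cocaine-free libraries. The one on chromosome 17 at 58077890 to 58078247, with scores of 102 in WIN+cocaine and 148 in cocaine, lay 900 bp from a WIN interval scoring 47 and 851 bp from a control interval scoring 42. That on chromosome 1 at 11912894 to 11913132, with scores of 100 and 114, lay 497 bp from a WIN interval scoring 163 and 1541 bp from a control interval scoring 222, both of them strong sites. The region on chromosome 8 at 81808167 to 81808519, with scores of 95 and 102, lay 868 bp from an interval in each of WIN and control.

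The remaining ones were more than 10 kb from any such interval. They lay on chromosome 16 at 23538441 to 23538672, with scores of 102 in WIN+cocaine and 113 in cocaine, on chromosome 2 at 5353626 to 5353982, with 98 and 114, and on chromosome 5 at 12974893 to 12975187, with 100 and 98. Their gaps to the nearest WIN or control interval were 14300, 28946 and 53333 bp. In 6 of these 10 regions the WIN+cocaine and cocaine summits were at the same position.

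The strongest member of each chromosome varied widely. On chromosomes 4, 6, 7, 9, 13 and 19 the strongest member scored between 74 and 123 in WIN+cocaine and between 79 and 94 in cocaine. On chromosomes 3, 11, 14, 15, 18 and 20 it scored between 54 and 71 in WIN+cocaine and between 53 and 70 in cocaine. Chromosome 12 had the weakest best member among the autosomes, at 88915 to 89191, with scores of 44 in WIN+cocaine and 41 in cocaine. The single member on chromosome Y, at 67502 to 67757, scored 19 in WIN+cocaine and 29 in cocaine.

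Both libraries placed the member sites at nearly the same position, though falling in 1 narrow merged region leaves summits little room to differ. Summits lay on a grid, with 85.4% of those in WIN+cocaine and 85.7% of those in cocaine on a multiple of 32 bp. The median distance between the summits of a member was 32 bp, 1 step of that grid, with quartiles of 16 and 64 bp. They coincided in 22.5% of members (21.2% to 23.8%) and were within 50 bp in 69.1% (67.7% to 70.6%) and within 150 bp in 97.3%. In regions of all 4 libraries the same 2 libraries coincided in 31.1% (30.7% to 31.5%), and were within 50 bp in 71.9% and within 150 bp in 96.5%. Regions of the cocaine-treated pair with control were much like members, at 23.2% coinciding and 68.7% within 50 bp. Those of the pair with WIN had 21.9% and 67.0%. Every member was 1 interval from each library, and the intervals overlapped by a median of 99.1% of the shorter one.

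Stronger members agreed in position more often. The summits coincided in 18.8% of the 2715 members whose lower percentile rank was under 25 and in 26.9% of the 1018 members from 25 to 50. They coincided in 103 of the 271 members from 50 to 75 (32.2% to 44.1%) and in 25 of the 50 members above that (35.5% to 64.5%). Among regions of WIN and control alone the shares were 15.7%, 22.0% and 26.2% in the first 3 classes, and 14.3% of only 14 regions in the last.

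Member regions were narrow. Their median width was 299 bp (297 to 301 bp), with quartiles of 268 and 337 bp and a range of 200 to 796 bp, beside 484 bp for regions of all 4 libraries and 321 bp for WIN and control alone. In all, members covered 1247954 bp, or 2.98% of the bases in active regions. The widest, on chromosome 2 at 231624111 to 231624906, scored 24 in WIN+cocaine and 22 in cocaine, and its summits were 416 bp apart, so the merged region spans 2 offset calls. The 5 widest members were 658 to 796 bp wide, and 4 of them had summits at least 192 bp apart.

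At like score, too, intervals in members were narrower than those of the same library in regions of all 4 libraries. For scores of 50 to 74 the median interval width was 294 bp (285 to 303 bp) in the 151 members and 408 bp in the 12120 shared regions of WIN+cocaine. In cocaine it was 278 bp (268 to 295 bp) in 140 members and 400 bp in 12306 shared regions. For scores of 14 to 24 the gap was smaller, at 230 bp against 251 bp in WIN+cocaine and 227 bp against 251 bp in cocaine. Regions of WIN and control alone were narrow at like score as well: for scores of 50 to 74 they had 300 bp against 446 bp in shared regions in WIN, and 310 bp against 440 bp in control. Width at a given score was thus lower in regions of either pair than in regions of all 4 libraries.

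Most members lay some kilobases from the nearest open site of the cocaine-free libraries. The gap from a member to the nearest WIN or control interval had a median of 7832 bp (7508 to 8221 bp) and quartiles of 3291 and 17837 bp. It was at most 1 kb in 356 members, or 8.78% (7.93% to 9.70%), and at most 10 kb in 2348, or 57.9% (56.4% to 59.4%). For regions of WIN and control alone, the gap to the nearest WIN+cocaine or cocaine interval had a median of 6905 bp and was at most 1 kb in 15.3% (13.6% to 17.0%) and at most 10 kb in 61.8% (59.5% to 64.0%). This order turned round at equal numbers of intervals, where the gap was at most 10 kb in 65.1% of members (63.3% to 66.9%) and in 52.7% of regions of WIN and control alone (50.9% to 54.5%). At 1 kb the shares were then 10.9% and 10.8%.

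Few members lay close to a cocaine-free call in distance, but many rested on a weak call. Reducing the cocaine-treated libraries to their 69639 highest-scoring intervals removed 1350 of the 4054 members and kept 2704, or 66.7%. The member nearest to a cocaine-free interval, on chromosome 20 at 14561081 to 14561388, was 2 bp from it, and 22 members were within 100 bp. Just outside the rule lay 4663 regions of the cocaine-treated pair with WIN and 4154 of the pair with control. In those, the cocaine-free interval had a median score of 27 in WIN and in control alike, and it overlapped the cocaine-treated ones by at least 53 bp in WIN and 30 bp in control. The call that kept these regions out of the set thus stood at a median percentile of 26.2 in WIN and 26.3 in control, where the lowest score of any library was 14.

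The gap varied with strength, and not in 1 direction. It was at most 10 kb in 48.6% of members with a lower rank under 25, in 76.0% from 25 to 50, in 83.8% from 50 to 75, and in 54.0% (39.3% to 68.2%) of the 50 strongest. Among regions of WIN and control alone the shares were 53.3%, 81.3%, 90.7% and, for the 14 strongest, all 14 (exact lower limit 76.8%). Of those strongest regions 10 of 14 were within 1 kb of a cocaine-treated interval, beside 6 of the 50 strongest members within 1 kb of a cocaine-free one. The median gap was 8189 bp (3400 to 16625 bp) for the 50 strongest members and 324.5 bp (210 to 1716 bp) for the 14. At equal numbers the strongest classes had the same 27 of 50 and 14 of 14 regions within 10 kb, while below rank 25 the order turned round, with 54.2% of members and 46.1% of regions of WIN and control alone, and from 25 to 50 it did too, with 75.6% and 71.4%. Within 50 kb on either side the 50 had a mean of 4.48 other active regions, close to the 4.53 of members ranked under 25, while members of rank 25 to 50 had 6.26, members of rank 50 to 75 had 6.75 and the 14 had 7.07.

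**Figure D4:**
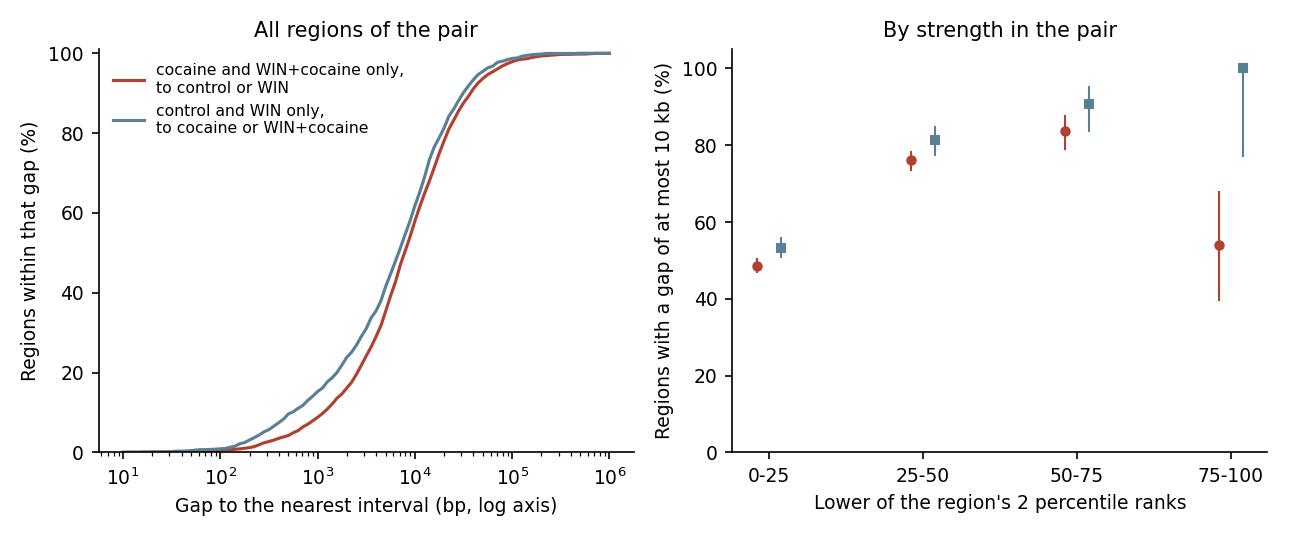
Left, cumulative share of regions against the gap to the nearest interval of the other 2 libraries, in bp on a log axis, for members (red) and for regions of WIN and control only (blue), with all intervals; at equal numbers the order at 10 kb is the opposite. Right, share with a gap of at most 10 kb by the lower of the region's 2 percentile ranks, with exact 95% intervals; the 50 strongest members stand at 54.0%, below the 83.8% of the class before.

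Nearly every chromosome gave members in proportion to its open regions. The share of active regions that were members ran from 2.97% on chromosome 12 to 4.61% on chromosome 3 among the autosomes. On 19 of 22 chromosomes the exact 95% interval of the share included the 4.06% of all chromosomes. The exceptions were chromosome 12, with 49 of 1651 regions (2.20% to 3.90%), chromosome 3, with 293 of 6354 (4.11% to 5.16%), and chromosome X, with 130 of 2428, or 5.35% (4.49% to 6.33%). At equal numbers of intervals 95 of 2428 chromosome X regions were in the cocaine-treated pair alone, or 3.91% (3.18% to 4.76%), beside 2.77% of all regions. These intervals are not adjusted for the 22 chromosomes looked at, and they treat regions as independent.

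With all deposited intervals, chromosome X, of which male cells carry a single copy, held more of several sets that involve the cocaine-treated libraries. Beside its 5.35% of members it had 7.83% WIN+cocaine alone and 7.95% cocaine alone, where all chromosomes together had 6.75% and 6.20%. Regions of the cocaine-treated pair with control were 5.48% on X and 4.16% in all, but those of the cocaine-treated pair with WIN were 4.12% on X and 4.67% in all. Regions of WIN and control alone were 1.61% on X and 1.86% in all. At equal numbers of intervals members remained higher on X, at 3.91% (3.18% to 4.76%) on X and 2.77% in all. The sets of the cocaine-treated pair with WIN or with control were not counted on X in that setting. The other sets differed less between X and all chromosomes at equal numbers. WIN+cocaine alone was then 4.86% on X and 5.05% in all, and cocaine alone 5.60% (4.72% to 6.59%) on X and 4.73% in all. WIN and control alone was 3.05% on X and 2.91% in all. All 4 libraries had lower scores on X than on the autosomes, with medians of 35 and 39 in WIN+cocaine, 34 and 39 in cocaine, 33 and 37 in WIN, and 33 and 37 in control. Members on X and on the autosomes differed little, with median scores of 26 and 27 in each cocaine-treated library; the part of depth on X in this share was not tested.

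**Figure D5:**
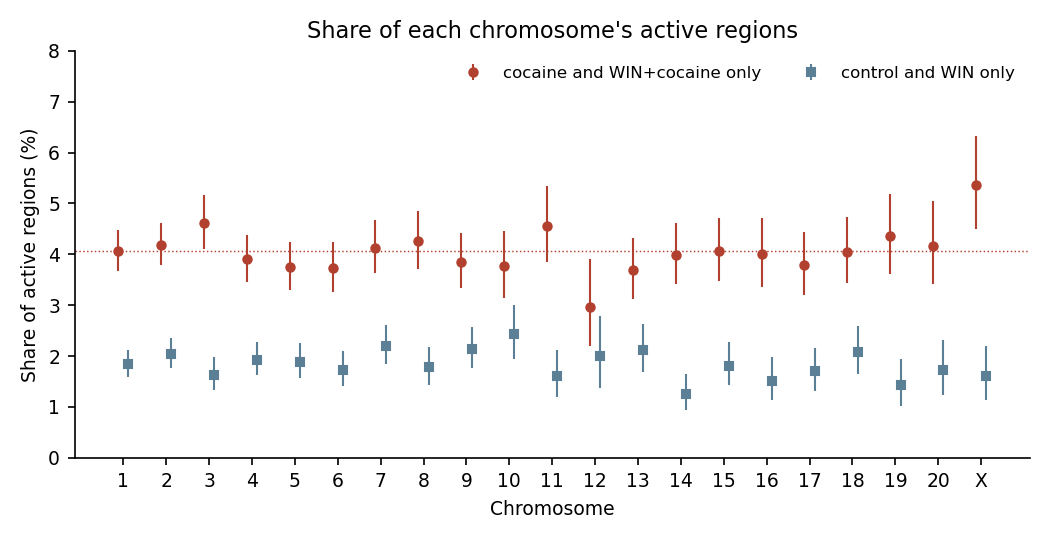
Share of each chromosome's active regions that are members (red circles) or belong to WIN and control only (blue squares), with exact 95% binomial intervals; the dotted line is the 4.06% of members among all active regions and chromosome Y, with 9 active regions, is left out. Chromosome X stands highest for members, at 5.35%.

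Along the chromosomes members were spread evenly. When each chromosome was cut into 10 equal parts by position, the share of members ran from 3.75% to 4.36%, and every exact interval included 4.06%. Neighbouring open regions were members no more often than any region: of the 8107 active regions next to a member, 310 were members, or 3.82%. Within 50 kb on either side a member had a mean of 5.12 other active regions, beside 5.13 for WIN and control alone and 5.27 for regions of all 4 libraries.

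A few stretches held many members. Of 2758 stretches of 1 Mb with any active region, 772 held no member, 864 held 1, and 87 held 5 or more, which together took 485 members. The richest, chromosome 2 from 80000001 to 81000000, had 10 members among 89 active regions. It had no region of WIN and control alone, but that set is only 1.86% of all active regions, so nothing is read from its absence. The members in this stretch scored from 19 to 62 in WIN+cocaine and from 19 to 46 in cocaine. Neighbouring members were 16204 to 196693 bp apart, a gap measured between members only. Whether they belong to 1 domain was not tested. On chromosome 19 from 17000001 to 18000000 there were 8 members among 62 regions, and on chromosome 2 from 231000001 to 232000000 there were 8 among 69. Another 10 stretches held 7 each, led by chromosome 9 from 115000001 to 116000000, with 7 of 48, and chromosome 14 from 77000001 to 78000000, with 7 of 52. These stretches were picked from 2758 for their counts, so their shares are a description.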

How the data were processed

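The authors deposited, in 1 file of the whole series, a summit track and an interval track per ATAC library and a track of merged active regions. The whole-number score at each summit was made by the authors before deposit, with no scaling stated in the file. The submitters' processing notes name BWA and MACS2 2.1.0; the build and any shift of insertion sites are not given there. The members were chosen with earlier results of these data known, as were the comparisons.

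Groups came from the sample titles. Each summit was tied to its interval, and each interval to the active region it overlapped by at least 1 bp; all lay inside 1 region. Scores were ranked within a library as percentiles, with ties averaged. Read depth is unknown. Medians have exact binomial order-statistic intervals and shares have exact Clopper-Pearson intervals, both at 95%, for counting error only. Starts are printed 1-based. The assignment was tested on simulated data. Alternatives cut the intervals by number, score, overlap or distance, or merged them with bedtools 2.31.1.

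The regions named were the 10 members with the highest value of the lower of their 2 ranks, the best on each chromosome, the 5 most unequal in each direction, the 5 widest and the 5 stretches of 1 Mb with most members, where the share of regions broke ties after the data were examined. The descriptions by strength class, by width at like score and of chromosome X, and the partner, decile, gap, strength and chromosome X values at equal numbers of intervals, were likewise chosen after the values were seen. The reference table at hand is of assembly GRCr8, and 2476 active regions end beyond its last gene on their chromosome, so no gene or sequence was taken from it. The 18 RNA libraries were not used here. Python 3.11.15, pandas 2.3.3 and scipy 1.17.1 were used.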

Additional observations from a re-analysis of the deposited data

How the results depend on the processing

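The count of 4054 members was within 1.5 times in all but 2 of the alternatives run, which were both scores at least 40 and the 50000 highest-scoring intervals of each library. It was 306 when both cocaine-treated scores had to be at least 40 and 1958 with the 50000 highest-scoring intervals of each library, of which 795 were members as reported; the cut to 50000, the reduction of the cocaine-treated libraries alone and the count without X and Y (3923) were chosen after seeing the data. With equal numbers of intervals members were 2.77% of regions, at median percentiles of 31.2 in WIN+cocaine and 31.0 in cocaine, with a median width of 303 bp, summits within 50 bp in 73.5% and a cocaine-free interval within 10 kb in 65.1%. A score of at least 30 in every library gave 3508 regions, against 1037 of WIN and control alone, and only 1041 of the 3508 were members as reported; the others hold a weaker WIN or control call. Over this largely different set the values were 3.51%, 46.4 in WIN+cocaine, 44.3 in cocaine, 355 bp, 75.2% and 46.2%. With both cocaine-treated scores at least 40 they were 0.306%, 65.0 in WIN+cocaine, 63.8 in cocaine, 296.5 bp, 81.4% and 78.4%, and the median summit distance was 16 bp. Ranks are higher under these 3 settings by construction, since they drop weak calls; for the other values the cause was not tested. Without members within 1000 bp of a cocaine-free interval the share was 3.70%, the rank in cocaine 21.7 and the share within 10 kb 53.9%, which follows from the setting for the first and last. Overlap of at least 50% of the shorter interval left 4012 members, and assignment by summit and merging with bedtools gave 4054 each. Where scores tie at the limit of equal numbers, the count depends on which tied intervals are kept. No paired analysis was possible because each treatment has 1 ATAC library and no result comes from a test. With 1 library per treatment, treatment and library cannot be told apart, and without read counts a missing call is not shown to be closed chromatin.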
